A study of Bos taurus with 2 samples.

Results

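The genes described here are the ligands and receptors of angiopoietin-Tie and apelin signaling, namely the angiopoietins *ANGPT1*, *ANGPT2* and *ANGPT4*, the receptors *TEK* and *TIE1*, the ligand *APLN* and its receptor *APLNR*. They were measured in the longissimus thoracis (LT) muscle of fetuses of Japanese Black cattle, taken 8.5 months into gestation (day 260 ± 8.3). Their mothers had been assigned, from before pregnancy and throughout it, to rations that covered 120% of the estimated needs (high nutrition or HN, 6 cows) or 60% (low nutrition or LN, 5 cows). Total RNA of 4 fetuses was pooled per group, those with the highest bodyweight in HN and those with the lowest in LN, and the pools were run on separate Agilent one-color arrays of the same slide. Diet and the selection of fetuses by bodyweight cannot be told apart in this design. With a single array for each group, the spread between fetuses is unknown and no p-value can be given. All 7 genes were on the array, with 14 of its 43653 probes, and all 7 were among the 19554 of 26714 array entries (gene symbols or unmatched transcripts) for which a difference between the pools could be given. Probes were assigned by their accession. The 7 genes were chosen by their role in these pathways, with the LN and HN values of the same arrays already known, so their differences are given as a description. The defining transcripts of skeletal muscle were bright on both arrays (11 of 13 listed genes had a probe, with log2 signals from 12.79 to 17.57 in HN).

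Angiopoietins are secreted ligands of TEK (also called Tie2), a receptor tyrosine kinase of endothelial cells. ANGPT1, made largely by the cells around vessels, activates TEK and steadies the vessel wall. ANGPT2, released by endothelial cells, often opposes this and accompanies vessel remodeling, and ANGPT4 is a less studied ligand of the same receptor. TIE1 is a related receptor that binds no angiopoietin tightly by itself and modifies TEK signaling. Apelin, the peptide made from *APLN*, acts on APLNR, a G protein-coupled receptor that is abundant on endothelial cells and takes part in vessel growth, vessel tone and glucose uptake by muscle.

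The sequences of the array probes are not in the tables used here. For *ANGPT4* and *APLNR*, the study also designed PCR primers, and these are shown because they name the transcripts of both genes (the same accessions as the array probes) at the level of sequence. They are written 5′ to 3′, and no base is marked. The PCR measurements themselves were not analysed here.
ANGPT4 forward: gtggcatctacaccatccatgt
ANGPT4 reverse: ccagttccgttggaaattcacg
APLNR forward: ttctaagagggagatgggagagag
APLNR reverse: cctgacaaaacaaagggtgatgaa

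The values of a probe are given as its processed signal, a background-corrected intensity in arbitrary units, and differences as log2 LN/HN after quantile normalization of both arrays. Negative values are lower in LN. A log2 LN/HN of -0.32 is a 1.25-fold lower level, the smaller of the thresholds used here, and -1 is 2-fold lower. Signals of different probes are not compared as levels, because probes differ in how brightly they hybridize. Error was taken from the software's error estimate of each spot, which amounts to 0.40 or more on the log2 LN/HN scale at 95%. Another measure came from 42 probes printed in several spots, whose single spots varied with an SD of 0.085 (0.17 at 95%), but their median log2 signal of 8.28 in HN was above that of 11 of the 14 member probes. The spread between spots is taken within this pair of arrays, so a difference shared by all spots of a probe is not in it. Neither measure covers the animals.

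Of the 7 genes, 6 were lower in the LN pool. *APLNR* (log2 LN/HN -0.71), *ANGPT4* (-0.36) and *ANGPT1* (-0.34) were past 1.25-fold, *TIE1* (-0.25) and *TEK* (-0.23) were lower by less, *APLN* (-0.09) lay within the error of a spot by both measures, and *ANGPT2* (0.04) was slightly higher. No gene value was past 2-fold lower or 1.25-fold higher, although that of *APLNR* includes a dim probe entered as a limit and was past 2-fold (-1.16) in the authors' normalized values. Among all genes, 9.11% were at least 1.25-fold lower, 8.85% at least 1.25-fold higher and 0.286% at least 2-fold lower, and 50.7% were lower by any amount. The median of the 7 genes was -0.25, against -0.0033 over all 19554 genes. The share of higher genes among those past 1.25-fold was 49.3%, and scaling to the 75th percentile gave 30.7% and no normalization 39.3%. With these 2 scalings 3 members were past 1.25-fold lower each time, while the share of all genes so called rose to 13.6% and 11.4%, respectively. After cyclic loess only *APLNR* was past 1.25-fold lower (*ANGPT1* -0.31, *ANGPT4* -0.31), with normexp, a model-based background correction, none was, and with the brightest probe of each gene *ANGPT4* and *APLNR* were. Of all genes, 10.2% were so after cyclic loess, 1.98% with normexp and 9.19% with the brightest probe. Since the members were chosen with these differences known, nothing is read from their count against these shares.

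**Figure D1:**
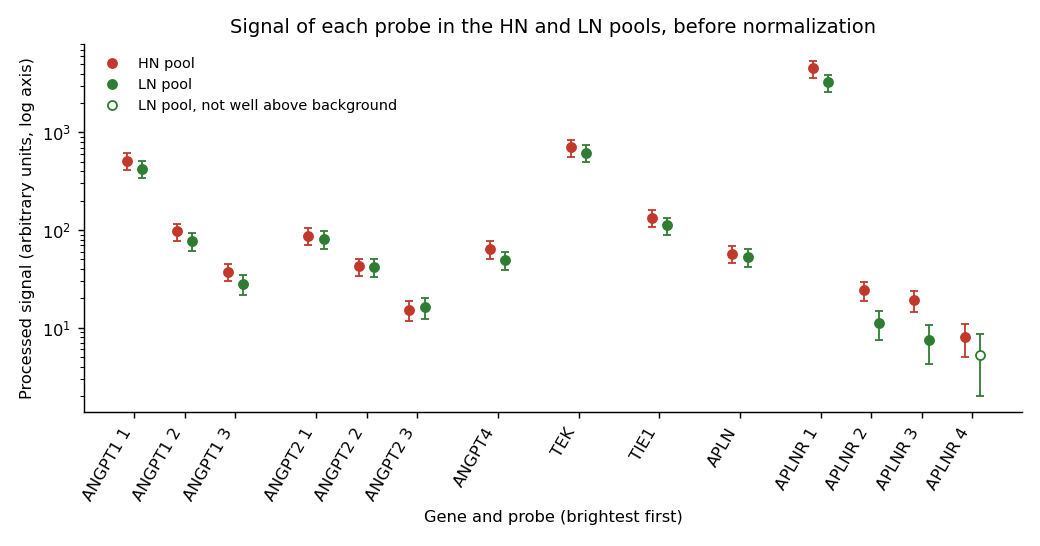
Processed signal (log axis) of each of the 14 probes in the HN pool (red) and the LN pool (green) before normalization, with bars for the software's error at 95% and an open symbol where the probe was not well above background. The LN point is lower than the HN point for every probe except the dimmest of *ANGPT2*, and the bars are separate only for the pair of *APLNR* probes next in brightness to its brightest.

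Among the ligands of TEK, *ANGPT1* had 3 probes, whose signals in HN and LN were 514 and 426, 97.4 and 77.1, and 37.6 and 28.1. All were lower in LN, by log2 LN/HN of -0.31, -0.33 and -0.36. Their SD was 0.026, and among the 2987 genes that had 3 or more probes above background in both pools, 96.7% had an SD at least as large. The closeness depended on the scaling, with an SD of 0.0082 after cyclic loess, 0.075 without normalization and 0.11 with normexp. No probe of *ANGPT1* was past its own error of 0.40 to 0.44, whereas the mean of the 3 probes (-0.34) was past the error of the mean (0.24 at 95%, with the spot errors taken as independent). The gene was at 79.3% of its HN level, and stood at rank 1653 of 19554, counted from the lowest log2 LN/HN.

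*ANGPT2* also had 3 probes, with signals in HN and LN of 87.2 and 80.8, 42.5 and 42.1, and 15.2 and 16.3. Their log2 LN/HN values were -0.10, 0.03 and 0.20, so the probes did not share a direction, and all were within the software's error. The gene value of 0.04 was inside the error of the mean (0.26). *ANGPT1* minus *ANGPT2* was -0.38 on the log2 LN/HN scale, with a lower value for *ANGPT1* in all 9 pairs of their probes (-0.56 to -0.21). Adding a constant to the log2 values of either array leaves this difference as it is, and it ranged from -0.38 to -0.21 over the alternative settings. The 9 pairs reuse the same 3 probes of each gene and are not independent. The pools thus differed in the balance of these 2 transcripts by 1.30-fold, without replicate arrays to set this against.

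*ANGPT4* had 1 probe, with a signal of 63.6 in HN and 49.3 in LN, a log2 LN/HN of -0.36 (78.2% of HN, rank 1476). This was past the spread between spots but within the software's error of 0.42. The 30639 probes measured on both arrays were divided by signal into bands of equal size, and of the 3064 in the band of this probe 6.72% were lower by at least as much. With 1 probe, no other spot of the array speaks to this value.

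The receptors differed between the pools by similar amounts. *TEK*, with 1 probe, had a signal of 702 in HN and 614 in LN (log2 LN/HN -0.23, 85.1% of HN). *TIE1*, also with 1 probe, had a signal of 133 in HN and 112 in LN (-0.25, 84.3% of HN). The difference between these receptors was 0.01. Both were past the spread between spots (0.17) and within the software's error (0.40), and 10.3% and 12.4% of probes of like signal, respectively, were lower by at least as much.

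**Figure D2:**
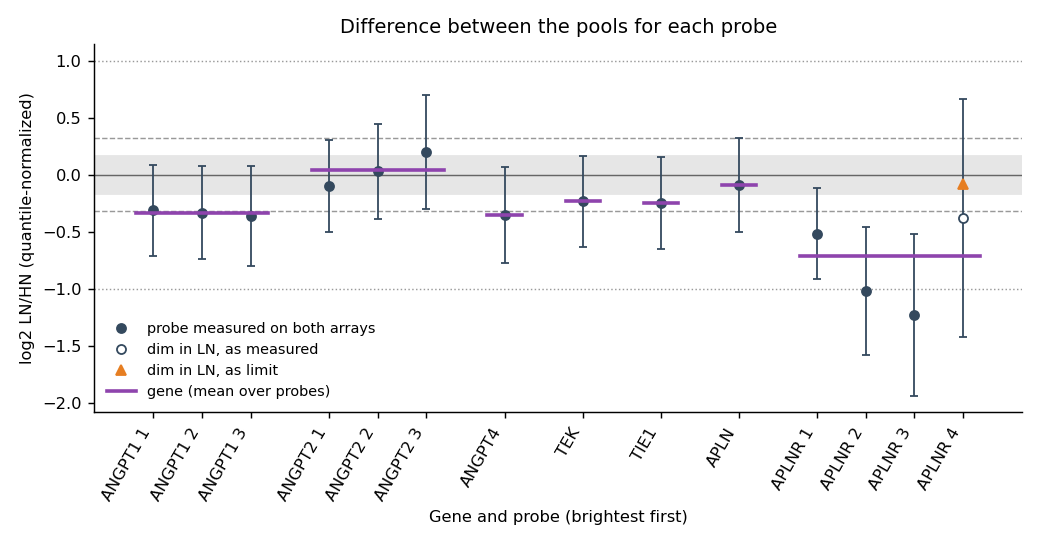
log2 LN/HN of each probe after quantile normalization, with bars for the software's error at 95%, purple lines for the gene means and an orange triangle where a dim LN signal was replaced by a limit. The grey band is the spread of single spots (0.17), and dashed and dotted lines mark 1.25-fold and 2-fold. The 3 probes of *ANGPT1* lie together, those of *ANGPT2* straddle 0, and only 3 probes of *APLNR* have bars that do not reach 0.

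In the apelin pathway, *APLNR* minus *APLN* was -0.62 on the log2 LN/HN scale, from -1.07 in the authors' values to -0.15 with normexp. This value includes a dim *APLNR* probe entered as a limit, and over probes well above background on both arrays it was -0.83. Of the 4 probe pairs, 3 were lower for *APLNR* (down to -1.14). The other pair (0.0086) uses the limit, so it is only an upper bound and gives no direction. *APLN* had 1 probe, with a signal of 57.1 in HN and 52.9 in LN (log2 LN/HN -0.09, 94.0% of HN), which is less than the spread between spots. *APLNR* had 4 probes. The brightest had a signal of 4525 in HN and 3255 in LN, and the next 2 had 24.3 and 11.1, and 19.1 and 7.46. The last had 7.95 in HN and 5.31 in LN, where it was not well above background. The LN signal was the lower in every probe. In all but the brightest it was also near the lowest signal marked well above background in LN (a normalized log2 of 2.82, against 3.55, 2.98 and 2.52).

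The brightest probe of *APLNR* had a log2 LN/HN of -0.52 (1.43-fold lower), outside its error of 0.40. The next 2 were at -1.02 and -1.23 (2.03-fold and 2.34-fold lower), outside their errors of 0.56 and 0.71. For the dimmest probe, the lowest signal that counted as well above background in LN took the place of the measured one, which gave a limit of at least 1.06-fold lower (log2 LN/HN -0.08, against -0.38 as measured, with an error of 1.04). Over the 3 probes measured on both arrays the SD was 0.37, which 5.12% of the 2987 genes with 3 or more such probes reached or passed. The gene value of -0.71 includes the limit and is itself a bound, and without the dimmest probe it was -0.92. The 3 probes measured on both arrays were all lower in LN, and of these the 2 dim ones passed 2-fold. The dimmest probe was above background only in HN, so its direction carries no further weight.

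The spread of log2 LN/HN over all probes depends on brightness. In the dimmest of these bands, 16.4% were at least 1.25-fold lower and the SD was 0.42. In the brightest band, 3.33% were so and the SD was 0.17. Read in these terms, 0.914% of probes in the signal range of the brightest *APLNR* probe were lower by at least as much, 0.457% in that of the second and 0.196% in that of the third. For the 3 probes of *ANGPT1* the shares were 5.58%, 8.16% and 9.86%, and for *APLN* 35.2%. Of the 14 member probes, 6 were past 1.25-fold lower and 2 past 2-fold lower. Over all 31986 probes with a difference, the shares were 9.44% and 0.313%.

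**Figure D3:**
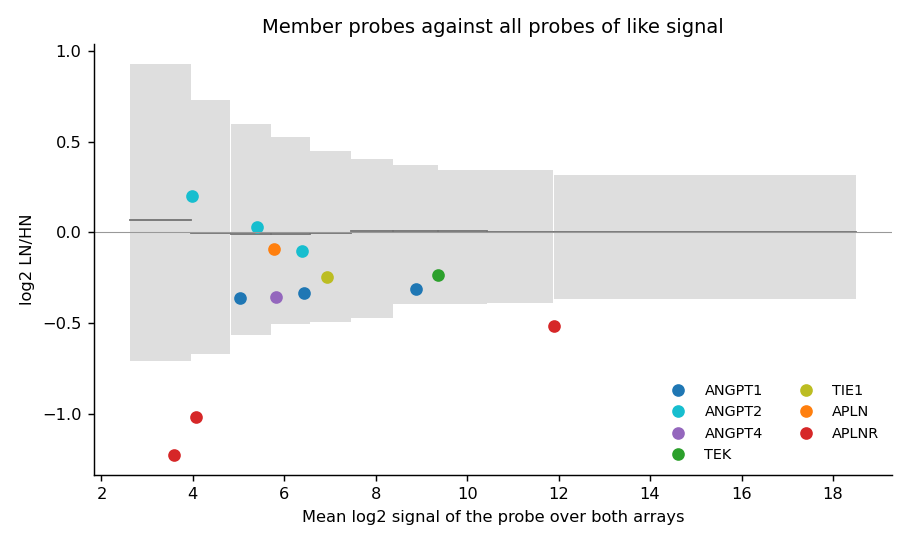
log2 LN/HN against the mean log2 signal of both arrays for the 13 member probes measured on both arrays (colored points), with the central 95% (grey) and the median (line) of all probes in each signal band. The 3 *APLNR* probes lie under the grey range at their signal, and the probes of the other genes lie inside it.

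Partners of these ligands and receptors differed little. The lists held 38 genes that act with the angiopoietins and Tie receptors or with apelin and its receptor, of which 31 had a probe, 27 were detected and had a difference, and none was past 1.25-fold in either direction. Of the 27, 13 were lower and 14 higher in LN, and the median was 0.03. *PTPRB*, the endothelial phosphatase that restrains TEK, was at -0.20 (its 3 probes lay between -0.26 and -0.17). Among the adaptors and kinases that carry the TEK signal, *DOK2* (-0.20) and *SHC1* (-0.06) were below 0 and *GRB2* (0.06), *GRB14* (0.05), *PIK3CA* (0.06), *PIK3R1* (0.16) and *AKT1* (0.14) above it. Among genes connected with APLNR, *GNAI1* (0.03), *GNAI2* (-0.01) and *GNAI3* (0.16) encode the inhibitory G proteins it couples to, and *ARRB1* (-0.07) and *ARRB2* (0.06) encode the arrestins. The apelin-cleaving peptidase *MME* was at -0.04, and *KLF4* (-0.18) and *HDAC5* (-0.21), both regulators of endothelial transcription, were the lowest of the targets. No probe had an accession matched to *APELA*, the other ligand of APLNR, to *SVEP1* or to *FOXO1*, the transcription factor that TEK signaling restrains. *GRB7*, *FURIN* and *KLKB1* were among those not well above background on either array.

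The angiopoietin-like proteins share the domains of the angiopoietins but do not bind TEK. A difference could be given for 5 of them. *ANGPTL4*, an inhibitor of lipoprotein lipase, was lower (log2 LN/HN -2.20, 1 probe, and -1.25 with normexp). *ANGPTL5* was higher (0.42), but not past 1.25-fold with the 75th percentile (0.32, just short) or normexp (0.11). *ANGPTL1* (0.23), *ANGPTL2* (0.20) and *ANGPTL6* (-0.26) were within 1.25-fold, although *ANGPTL6* was past it with the 75th percentile (-0.37) and without normalization (-0.33). *ANGPTL7* was not well above background, and no probe was matched to *ANGPTL8*. *ANGPTL4* and *ANGPT4* are separate genes with different accessions, although the gene table lists the name of the former as a synonym of the latter.

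**Figure D4:**
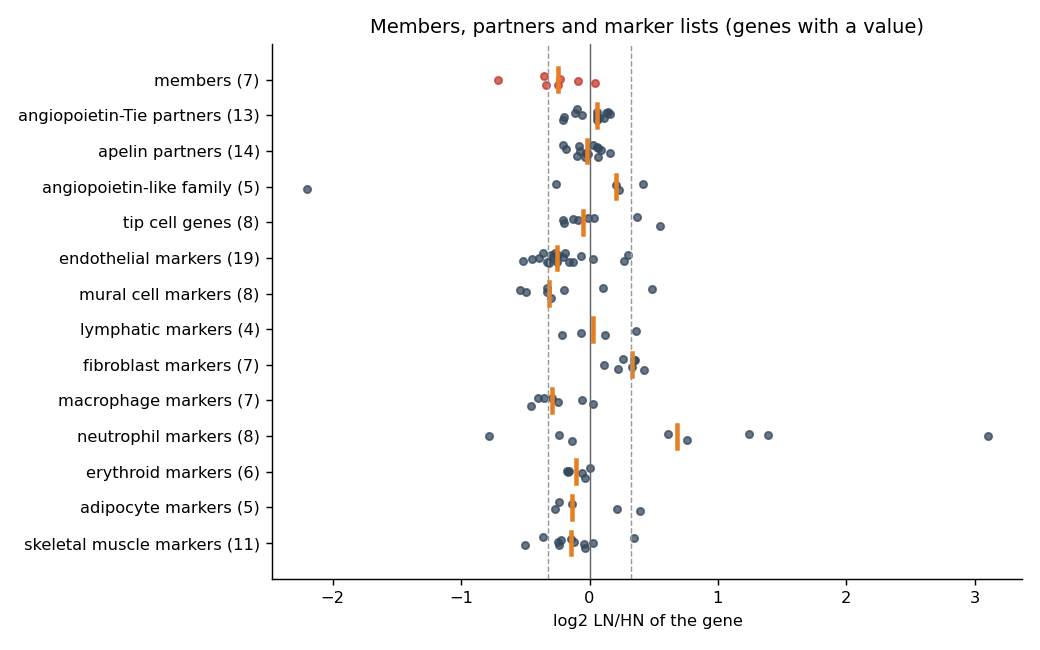
log2 LN/HN of each gene with a value (points) and the median (orange bar) for the 7 members, their partners and lists of cell type markers, with the number of genes in brackets and dashed lines at 1.25-fold. The partner lists center on 0. The endothelial, mural cell, macrophage, skeletal muscle and erythroid markers lie mostly to the left of it as the members do, and the fibroblast markers lie to the right.

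Because the members are largely expressed in vessels, other markers of vessel cells are given beside them. In whole muscle, fewer cells of a type and less RNA per cell cannot be told apart. Of 20 endothelial markers, 19 could be compared. Of these, 16 were lower in LN and 5 were past 1.25-fold lower (*CLDN5* -0.39, *SOX18* -0.52, *EGFL7* -0.45, *TAL1* -0.36 and *ECSCR* -0.33). Their median was -0.26, and their summed normalized signal was 13508 in HN and 10800 in LN, that is 80.0% of HN. *TEK* and *TIE1* differed from this median by 0.02 and 0.01, *ANGPT1* by -0.08, *ANGPT4* by -0.10 and *APLN* by 0.17. *ANGPT2* was 0.30 above it, and 17 of the 19 markers were lower than *ANGPT2*. *APLNR* minus the median was -0.45, and *APLNR* was lower than all 19 markers, although its brightest probe alone (-0.52) matched the lowest of them, *SOX18*. This gap ranged from -0.88 in the authors' values to -0.06 with normexp, where 7 of the 19 markers were lower than *APLNR*. The endothelial markers past 1.25-fold lower numbered 9 with the brightest probe of each gene, 7 with the 75th percentile and 4 with normexp. In the authors' values 4 were past it lower and 1 higher, and without a filter on dim probes 4 lower and 2 higher. In the reported setting, *CD34* (0.30, its probes at -0.21 and 0.81), *ERG* (0.27, partly a limit) and *VWF* (0.02) were above 0. The part of the endothelial markers in the member values was not tested.

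Mural cell markers label pericytes and smooth muscle cells, which make ANGPT1. A value was had for 8 of 10 genes, with 6 below 0, 4 past 1.25-fold lower and 1 past it on the other side, a median of -0.32 and a summed signal in LN of 80.6% of HN. *ACTA2* alone made up 78.4% of this sum in HN and was at 79.4% of HN itself. *ACTA2* (-0.33), *TAGLN* (-0.33), *MYH11* (-0.49) and *KCNJ8* (-0.54) were past 1.25-fold lower, whereas *PDGFRB* was higher (0.49), partly as a limit from a probe dim in HN. It was not past 1.25-fold over probes measured on both arrays (0.30), with its brightest probe (0.06) or after normexp (0.16). *RGS5* (-0.30), *MCAM* (-0.20) and *CSPG4* (0.11) were within 1.25-fold. The mural genes past 1.25-fold lower were 2 without normalization and 2 with normexp. Genes known from sprouting tip cells, a class to which *APLN* and *ANGPT2* also belong, lay nearer to 0. Their median was -0.05 over 8 genes other than members, none was past 1.25-fold lower, and *ESM1* (0.55, partly a limit) and *RAMP3* (0.37) were higher (1 of them with the 75th percentile or without normalization, and neither with normexp), whereas the bright *NID2* (0.03) and *PDGFB* (-0.13) were not past the threshold.

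Markers of other cell types also differed between the pools. All 7 fibroblast markers were higher in LN (median 0.33), with the collagens *COL1A1* (0.34), *COL1A2* (0.42) and *COL3A1* (0.33) and *LUM* (0.35) past 1.25-fold and *DCN* at 0.11 (2 past it in the authors' values), and their summed signal in LN was 122% of HN. Of 7 macrophage markers 6 were lower (median -0.29), among them *C1QB* (-0.45), *C1QC* (-0.40) and *CD68* (-0.35) past 1.25-fold, and the summed signal was 79.2% of HN. Of 8 neutrophil markers 5 were past 1.25-fold higher (*S100A8* 1.39, *S100A9* 1.25, *S100A12* 0.61, *LTF* 0.76 and *MPO* 3.11, the last as a limit and 0.72 with normexp) and *CXCR2* was lower (-0.79, as a limit, and -0.14 with normexp), with a summed signal of 618 in HN and 1142 in LN. Medians nearer to 0 were found for lymphatic markers (0.03, with *LYVE1* at 0.36 and *CCL21* at -0.06), erythroid markers (-0.11, with *HBA* at 0.0021 and *HBG* at -0.18) and adipocyte markers (-0.14, with *FABP4* at 0.39 and *CD36* at -0.24). The muscle fiber markers had a median of -0.15 and a summed signal in LN of 91.4% of HN, with *MYH1* (-0.50) and *MB* (-0.37) past 1.25-fold lower, *MYH8* (0.35) past it on the other side, and the bright *ACTA1* and *CKM* at -0.04 and -0.24. Their part in the member values was not tested.

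**Figure D5:**
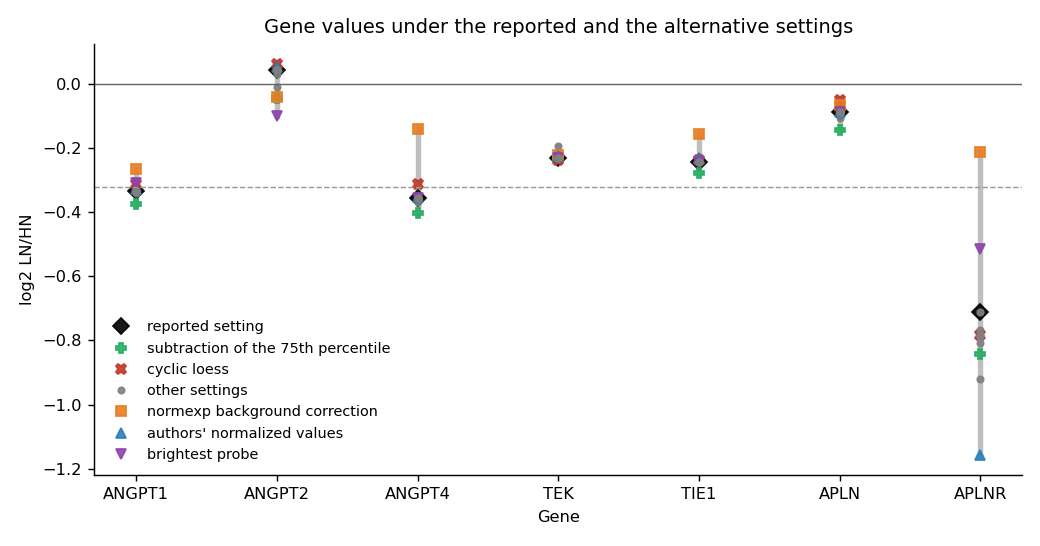
log2 LN/HN of each member gene in the reported setting (diamond) and under 12 alternative settings (other symbols), with the grey bar from the lowest to the highest and a dashed line at 1.25-fold lower. All values of the 6 genes other than *ANGPT2* are negative, *APLNR* spans the widest range (-1.16 to -0.21), and the values of *ANGPT2* lie on both sides of 0.

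The direction of 6 genes was the same in the reported setting and under all 12 alternatives, but for *ANGPT4*, *TEK*, *TIE1* and *APLN*, each with 1 probe, 7 of these could not change the value and 5 did. *ANGPT1* ranged from -0.38 to -0.27, *ANGPT4* from -0.40 to -0.14, *TEK* from -0.24 to -0.19, *TIE1* from -0.28 to -0.16 and *APLN* from -0.14 to -0.05. *ANGPT2* ranged from -0.10 with its brightest probe to 0.06 after cyclic loess, and was below 0 under 4 of the alternatives. *APLNR* had the widest range, from -1.16 in the authors' normalized log2 values, to -0.21 after the normexp background correction, which adds a constant of 50 to every signal. The authors' values hold no difference for the dimmest probe, and they place the probe at -1.23 here at -1.84, that at -1.02 at -1.16 and the brightest at -0.47. Under normexp its brightest probe was at -0.47, against -0.18, -0.20 and -0.01 for the others, and the endothelial median was -0.15.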

How the data were processed

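Pools of total RNA, 1 for HN and 1 for LN, were compared. Per the file headers, the authors extracted spot intensities with Agilent Feature Extraction 11.0.1.1. The deposited intensities are background-corrected, detrended and not normalized between arrays. The authors also deposited normalized values (quantile method, GeneSpring GX) for 30027 probes, whose log2 scale was judged from the values. Here, log2 intensities of the 43803 non-control spots were quantile-normalized with limma 3.58.1 in R 4.3.3. Removal of 13 spots with an outlier flag, none of a member, left 43652 probes, of which 26742 matched a symbol (12603 symbols) by accession in the ARS-UCD2.0 gene table. The array design refers to UMD 3.1, so no coordinates are given. Detection required a signal marked well above background in either pool. The value of a dim side was replaced by the lowest signal so marked (log2 2.27 in HN, 2.82 in LN) unless its own was higher, and no difference was given where the bright side did not exceed it. A gene is the mean over its probes. On the HN and LN arrays 74.5% and 70.9% of spots were well above background, and no spot was saturated. The number of arrays limits the precision. Python 3.11.15, numpy 2.4.6, pandas 2.3.3 and matplotlib 3.10.9 were used. The steps after normalization were tested on simulated data, with changes larger than those of the member genes in the reported setting. That test does not cover the normalization or differences as small as those reported for the members. The members and the 13 lists (143 entries, from general knowledge) were chosen with earlier results of these data known. Genes named from the lists were those past 1.25-fold, *APELA*, *PTPRB*, *SVEP1*, *FOXO1*, the angiopoietin-like genes and, of marker lists, the 2 of highest signal and the 1 of largest change. Other partners, *RGS5*, *CSPG4*, *CD34*, *ERG* and *VWF* were named after their values were seen. Names by likeness of pattern were not given, since 2 arrays yield 1 difference per gene. Values of some listed genes are not reported here.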

Additional observations from a re-analysis of the deposited data

How the results depend on the processing

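No paired analysis was possible because each group has 1 array, and for the same reason no replicate could be left out. Of the 3 member genes past 1.25-fold lower, 1 (*APLNR*) was so after cyclic loess, where *ANGPT4* (-0.31) and *ANGPT1* (-0.31) fell just short, and 0 were so with normexp, where the median of the members was -0.16. The count was 2 with the brightest probe (*ANGPT4* and *APLNR*) and 3 under the other 9 alternatives. No member was past 1.25-fold higher under any of the 12 alternatives run. Of the partner genes, 1 (*ARRB1*, -0.33) was past 1.25-fold lower with the brightest probe, and 2 were past 1.25-fold higher both with probes that only had to be positive and significant and without a filter on dim probes. Over all genes, the 1781 lower and 1731 higher past 1.25-fold became 391 and 319 with normexp, 3785 and 3121 with positive and significant probes and 3592 and 3251 without a filter, and 2693 were lower after subtraction of the 75th percentile. The 56 genes 2-fold lower became 4 with normexp, 93 with the 75th percentile, 263 with dim values as measured, 655 with positive and significant probes and 595 without a filter. The normexp correction used median spot signals, since mean signals are not in the files. An alternative that adds the gene name of a probe to the match was not run, because the files hold none. The low signal of 3 of the 4 *APLNR* probes limits the size given for that gene, and the 4 genes with 1 probe have no other measurement on the array.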
